A study of Mus musculus with 12 samples.

Results

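The genes Jag2, Fam46a, Plaur, Baiap3, Dclk1, Ier3, Papss2, Lrp1, Scml4 and Camk2b are described here across the 4 groups of a mouse CD8 T cell experiment. They are 10 of 23420 genes listed in the count tables, and they were chosen by name as genes whose response to loss of Otub1 differed between resting and stimulated cells or appeared only after stimulation. The measured knockout effects in both states therefore chose them, and those effects are given below as a description. Where test calls of these effects are counted, they follow from the choice and nothing is read from them. All 10 passed the filter on low counts, which left 12759 genes tested, and Dclk1 passed it through the stimulated libraries alone.

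RNA was sequenced from splenic CD8 T cells of wild-type OT-I mice and of OTUB1-CD4Cre-OT-I mice, called knockout here, with 3 libraries in each of 4 groups. All mice were C57BL/6, were 6 to 8 weeks old and carried the OT-I transgenic T cell receptor, which recognises an ovalbumin peptide; the Cre recombinase of the knockout is driven by Cd4 sequences, which act in developing T cells. Untreated cells are called fresh, and stimulated cells were cultured for 24 h on plate-bound anti-CD3 together with anti-CD28, antibodies to the T cell receptor complex and to a costimulatory receptor, at 1 µg/ml each. Since fresh cells are read here as uncultured, the effects of the antibodies and of culture cannot be told apart. The labels write the knockout genotype as OTUB1-DKO, an abbreviation that they do not expand, and their cell type tag names splenic DCs where the design text names naive CD8 T cells. They do not say whether the 3 libraries of a group came from separate mice. The p-values therefore measure the spread among the libraries only. That spread may be technical in part, or wholly in stimulated wild type, the only group in which Y-linked reads (below) do not show more than 1 animal.

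OTUB1 is a deubiquitinase that cleaves ubiquitin chains and also binds and restrains ubiquitin-conjugating enzymes. A resting T cell that is stimulated through its receptor and CD28 turns on calcium, kinase and NF-kappaB signalling, shuts down part of its resting transcriptome and starts to grow. The 10 genes belong to different branches of cell biology: a Notch ligand, 2 endocytic or protease-binding surface receptors, 2 kinases, an exocytosis factor, an early response gene, a sulfate-activating enzyme, an RNA-modifying enzyme of the FAM46 family and a Polycomb-related nuclear protein.

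Library size ranged from 15064488 to 25920035 gene counts. Otub1 itself, the targeted gene, was at 62.8 ± 15.4 CPM in fresh wild type beside 27.6 ± 1.91 CPM in fresh knockout, and at 94.0 ± 7.48 CPM in stimulated wild type beside 14.8 ± 1.26 CPM in stimulated knockout (CPM, the counts of a gene scaled to 1e+06 counts in its library, mean ± SD, n = 3), and its groups did not overlap in either state. All 8 CD8 T cell markers examined had counts in every group, with a summed level of 5626 to 6002 CPM in fresh libraries. The 14 dendritic cell markers summed to 1679 to 2255 CPM in fresh libraries, below the CD8 sum. Y-linked reads were present in 1 library of each group (replicate 3 of fresh wild type and of stimulated knockout, replicate 2 of fresh knockout) other than stimulated wild type, where no library had them, so 3 of the groups hold more than 1 animal.

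After stimulation, 7 of the 10 genes were higher in the knockout than in wild type (Jag2, Fam46a, Plaur, Dclk1, Ier3, Papss2 and Lrp1) and 3 were lower (Baiap3, Scml4 and Camk2b), and for all 10 the 3 knockout libraries lay apart from the 3 wild-type libraries. The share of all tested genes whose stimulated libraries did not overlap was 27.4%, and in fresh cells it was 20.0%, where 5 of the 10 did not overlap. By edgeR's quasi-likelihood test at an adjusted p under 0.05, all 10 were called in stimulated cells against 9.30% of all genes, 1 in fresh cells (Baiap3, higher) against 1.20% (0.980% higher), and 6 in the interaction, the difference between the knockout effects of both states, against 2.26%. These counts follow from how the genes were chosen, and nothing is read from them. Median log2 fold changes of the 10 genes, knockout over wild type, were -0.05 in fresh and 1.26 in stimulated cells, beside medians of -0.00 in both states for all genes tested.

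**Figure D1:**
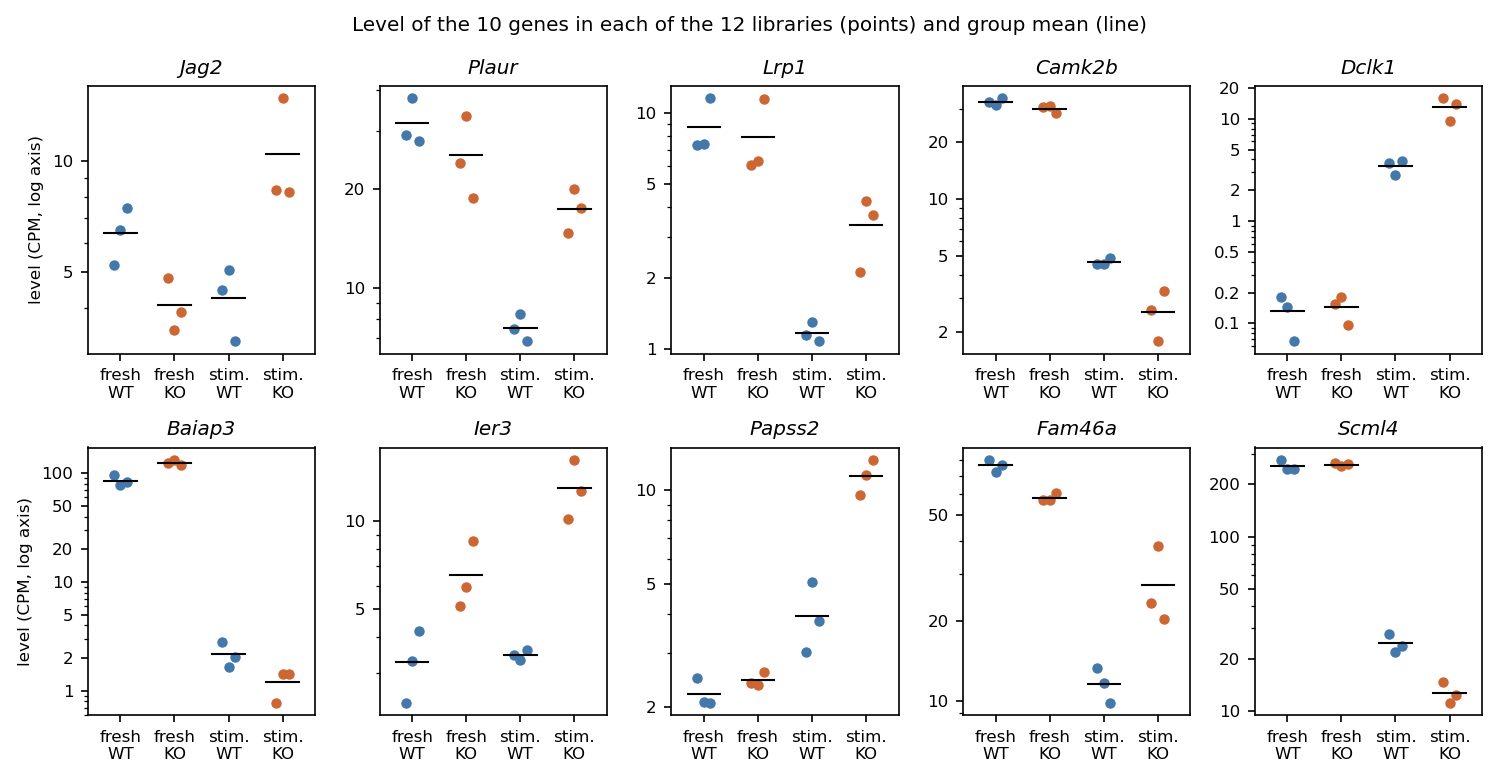
Level of each of the 10 genes in CPM (log axis, a separate scale for each gene) in the 4 groups, with 1 point per library (3 in each group) and a line at the group mean. In stimulated cells (stim.) the 3 knockout points and the 3 wild-type points do not overlap for any of the 10 genes, with Dclk1 at 9.42 to 15.9 CPM against 2.79 to 3.82 CPM and Scml4 at 11.1 to 14.7 CPM against 21.8 to 27.8 CPM.

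Of the members that were higher in the stimulated knockout, 4 carry letters that match a binding motif of NF-kappaB or AP-1, transcription factors of T cell activation, in the 250 bases before a RefSeq start. They are shown so that these stretches can be read beside the levels that follow. Sequences are from RefSeq on GRCm38.p6, on the gene's own strand, all plus, and written 5′ to 3′ with the motif matches in capitals. The Ier3 stretch, chr17:35821463-35821683, stops where the GENCODE vM21 annotation starts an exon and holds an NF-kappaB consensus match; the Papss2 stretch, chr19:32595465-32595714, holds a pair of such matches. The Plaur stretch, chr7:24462233-24462482, holds an AP-1 match. The stretch before the more downstream of the RefSeq starts of Dclk1, chr3:55461478-55461727, holds a pair, TGAGTCA and TGATTCA. Both match because the AP-1 motif as searched leaves the middle base open.
Ier3: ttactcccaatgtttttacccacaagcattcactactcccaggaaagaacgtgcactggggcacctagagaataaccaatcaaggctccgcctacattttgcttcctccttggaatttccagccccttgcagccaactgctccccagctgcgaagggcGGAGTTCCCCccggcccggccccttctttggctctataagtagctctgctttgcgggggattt
Papss2: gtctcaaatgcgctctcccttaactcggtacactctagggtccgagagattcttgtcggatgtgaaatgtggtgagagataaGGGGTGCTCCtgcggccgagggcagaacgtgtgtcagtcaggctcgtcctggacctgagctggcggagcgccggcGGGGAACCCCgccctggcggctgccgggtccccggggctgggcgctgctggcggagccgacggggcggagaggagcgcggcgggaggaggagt
Plaur: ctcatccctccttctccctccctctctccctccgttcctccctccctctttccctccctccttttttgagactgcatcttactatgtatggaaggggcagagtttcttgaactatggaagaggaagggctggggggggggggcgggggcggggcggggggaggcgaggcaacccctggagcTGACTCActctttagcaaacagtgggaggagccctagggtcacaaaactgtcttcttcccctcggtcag
Dclk1: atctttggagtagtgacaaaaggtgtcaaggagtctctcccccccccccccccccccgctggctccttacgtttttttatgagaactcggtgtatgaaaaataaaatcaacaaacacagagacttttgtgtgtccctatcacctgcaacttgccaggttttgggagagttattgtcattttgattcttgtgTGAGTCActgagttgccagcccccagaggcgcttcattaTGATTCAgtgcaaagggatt

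In all, 14 motifs were searched on both strands in those 250 bases, chosen after the levels were known, and 9 of the 10 genes had an entry (12 entries in all; Scml4 had none). The NF-kappaB consensus matched in 2 of the 12 entries (2 of the 9 genes) and in 7.25% of 32851 promoter entries of that length. The AP-1 motif TGANTCA, where N is any base, matched in 2 of the 12 entries (2 of the 9 genes) and in 6.75%. The GC box GGGCGG matched in 8 entries of 7 genes and in 32.7% of promoters, and the CSL core TGGGAA in 3 entries of 3 genes and in 21.6%. The hypoxia response core ACGTG and the RUNX motif TGTGGT each matched in 2 entries of 2 genes, and in 16.6% and 14.05% of promoters. The NFAT core TGGAAA matched in 1 entry and in 18.6% of promoters. The ETS motif CCGGAAG and the TATA box TATAAA each matched in 2 entries of 1 gene, and in 6.91% and 12.4% of promoters. No match in the 9 genes was found for the CRE motif TGACGTCA (1.55% of promoters) or the short CRE core TGACG that each such motif holds (17.8%). The EGR motif GCGTGGGCG (0.536%), the FOXO motif GTAAACA (3.17%) and the SRF CArG box (1.47%) had no match in them either. A match is a run of letters and does not show that a factor binds there.

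Jag2 encodes Jagged 2, a membrane-bound ligand of Notch receptors, and lies on chromosome 12 from 112907819 to 112929776 on the minus strand (GRCm38, as all gene positions here). Its level was 5.22, 6.49 and 7.46 CPM in fresh wild type beside 4.83, 3.49 and 3.88 CPM in fresh knockout, and after stimulation 4.46, 5.06 and 3.24 CPM in wild type beside 8.32, 14.8 and 8.26 CPM in knockout (replicates 1 to 3 in order, here and below). The knockout libraries were the lower ones when fresh and the higher ones when stimulated, with no overlap in either state, and replicate 2 stood highest among the stimulated knockout libraries. On the log2 scale, knockout over wild type was -0.65 (SE 0.24) in fresh cells and 1.29 (SE 0.23) in stimulated cells. Without stimulated knockout replicate 2 the latter was 0.97.

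Plaur encodes the urokinase receptor, which holds the protease urokinase at the cell surface, and lies on chromosome 7 from 24462484 to 24475968 on the plus strand. It measured 29.3, 37.8 and 28.0 CPM in fresh wild type beside 24.0, 33.3 and 18.8 CPM in fresh knockout, then 7.46, 8.33 and 6.86 CPM in stimulated wild type beside 14.7, 20.0 and 17.5 CPM in stimulated knockout. Fresh libraries of the genotypes overlapped, while every stimulated knockout library was above every stimulated wild-type library. The log2 fold change of knockout over wild type was -0.33 (SE 0.17) when fresh and 1.20 (SE 0.19) when stimulated. The fresh value was -0.65 once the 3 libraries with Y-linked reads were left out.

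Lrp1 encodes a large endocytic receptor of the LDL receptor family that takes up many ligands, among them complexes of proteases with their inhibitors, and lies on chromosome 10 from 127538161 to 127621148 on the minus strand. Its level was 7.35, 7.41 and 11.6 CPM in fresh wild type beside 6.03, 6.29 and 11.5 CPM in fresh knockout. After stimulation it was 1.15, 1.30 and 1.08 CPM in wild type beside 2.13, 4.24 and 3.70 CPM in knockout. In fresh cells replicate 3 was highest in both genotypes and the genotypes overlapped, whereas in stimulated cells the knockout libraries were all above wild type. On the log2 scale, knockout over wild type was -0.14 (SE 0.26) in fresh and 1.49 (SE 0.36) in stimulated cells, where the SE was the widest of the 10 genes. The fresh value changed sign in some settings, and was 0.25 without the libraries with Y-linked reads.

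Lrp1 and Plaur are also expressed by macrophages and other myeloid cells, so markers of such cells were examined beside them. Of 14 myeloid markers, 12 were listed, and their summed level was 190 to 270 CPM in fresh wild type, 152 to 250 CPM in fresh knockout, 12.0 to 14.7 CPM in stimulated wild type and 9.38 to 12.4 CPM in stimulated knockout. The fresh libraries with the highest Lrp1 in each genotype, both replicate 3, were also those with the highest myeloid sum in each genotype. Fresh Plaur was highest in replicate 2 of both genotypes, at 37.8 and 33.3 CPM, and fresh knockout replicate 2 had the lowest myeloid sum of the fresh libraries. Most of the sum was Mpeg1, a macrophage gene, in both states. Its mean was 162 CPM in fresh wild type beside 132 CPM in fresh knockout. In stimulated cells it was 11.8 CPM in wild type beside 10.1 CPM in knockout. Over 3 stimulated libraries each, wild type first, Itgam had 15 and 28 counts, Csf1r 7 and 11, Lyz2 15 and 7, C1qa 2 and 3, and C1qc 5 and 1. Of the rest, Fcgr3 had 10 and 10 counts, Emr1 9 and 6, Cd14 5 and 3, and C1qb 4 and 3. S100a8 and S100a9 each had 3 and 1. None of the listed myeloid markers was called between the stimulated genotypes. The part of myeloid cells in the levels of Lrp1 and Plaur was not tested in either state. In bulk RNA, fewer cells of a type and less RNA per cell cannot be told apart.

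**Figure D2:**
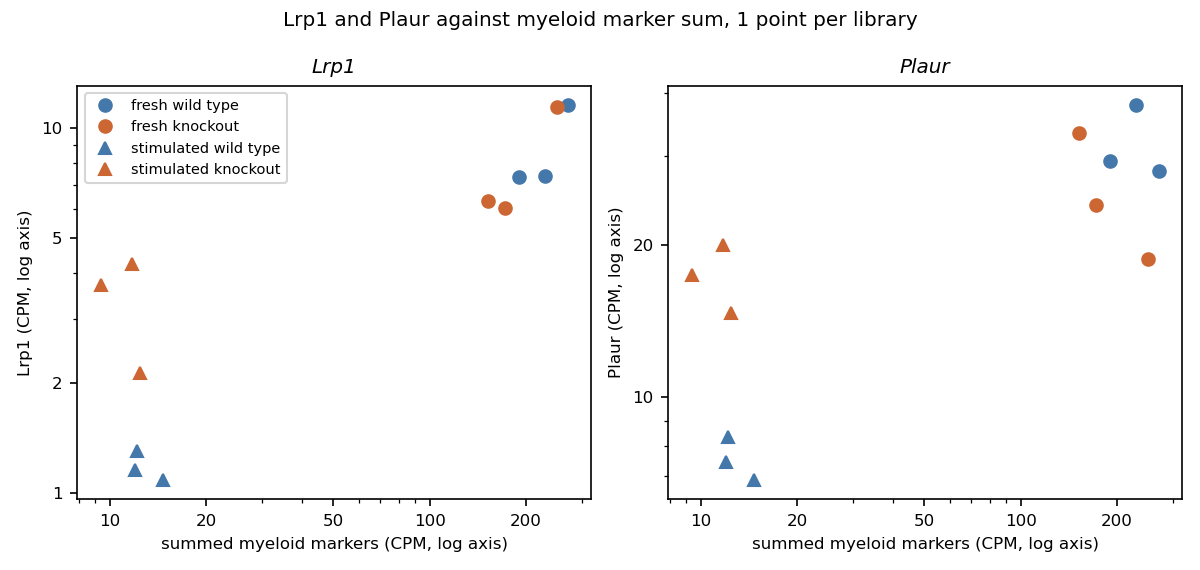
Lrp1 (left) and Plaur (right) in CPM against the summed level of the 12 listed myeloid markers in CPM, 1 point per library (circles fresh, triangles stimulated, blue wild type, orange knockout, all axes logarithmic). Among the stimulated libraries the knockout points lie higher on the vertical axis at myeloid sums of 9.38 to 12.4 CPM, beside 12.0 to 14.7 CPM for wild type, and the highest Lrp1 of each fresh group sits at the highest myeloid sum of that group.

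Camk2b encodes the beta subunit of calcium/calmodulin-dependent kinase II and lies on chromosome 11 from 5969644 to 6066362 on the minus strand. Fresh libraries held 32.8, 31.4 and 34.3 CPM in wild type beside 30.9, 31.1 and 28.5 CPM in knockout, and stimulated libraries 4.56, 4.58 and 4.90 CPM in wild type beside 2.59, 1.78 and 3.27 CPM in knockout. The knockout was lower in both states with no overlap, by a margin in fresh cells that was small beside the level. The log2 fold change of knockout over wild type was -0.12 (SE 0.11) in fresh and -0.86 (SE 0.15) in stimulated cells.

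Dclk1 encodes doublecortin-like kinase 1, a kinase that binds microtubules, and lies on chromosome 3 from 55242364 to 55539068 on the plus strand. In fresh cells it was close to undetected, with 3, 3 and 1 counts in wild type and 3, 4 and 2 counts in knockout, which is 0.0666 to 0.182 CPM over the 6 libraries. In stimulated cells it reached 74, 58 and 92 counts in wild type and 411, 180 and 323 counts in knockout, which is 3.71, 2.79 and 3.82 CPM against 15.9, 9.42 and 13.9 CPM. All stimulated knockout libraries were above all stimulated wild-type libraries, and no difference between the genotypes was detectable at this depth in fresh cells. On the log2 scale, knockout over wild type was 1.93 (SE 0.19) in stimulated cells, the largest of the 10, and 0.10 (SE 0.75) in fresh cells.

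Baiap3 encodes a protein of the Munc13 family, which acts in the release of vesicles, and lies on chromosome 17 from 25242659 to 25256364 on the minus strand. It stood at 95.9, 78.8 and 82.6 CPM in fresh wild type beside 124, 134 and 119 CPM in fresh knockout, and fell to 2.81, 1.64 and 2.04 CPM in stimulated wild type beside 0.774, 1.41 and 1.42 CPM in stimulated knockout. The knockout libraries were thus the higher ones when fresh and the lower ones when stimulated, without overlap in either state. The log2 fold change of knockout over wild type was 0.55 (SE 0.10) in fresh and -0.87 (SE 0.25) in stimulated cells. Of the genes that overlap Baiap3, only Tsr3 was listed, and it shares 140 exon bases with Baiap3 on the opposite strand. Whether the counting used strand is not given in the sources used here, so reads in those bases could belong to either gene; the log2 fold change of Tsr3 in stimulated cells was -0.02 (SE 0.10).

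Ier3, an early response gene that is induced by growth factors and NF-kappaB and acts in cell survival, lies on chromosome 17 from 35821684 to 35822923 on the plus strand. It was measured at 2.37, 3.29 and 4.19 CPM in fresh wild type beside 5.09, 5.93 and 8.58 CPM in fresh knockout, and at 3.46, 3.32 and 3.62 CPM in stimulated wild type beside 10.2, 16.3 and 12.7 CPM in stimulated knockout. Knockout libraries were above wild type in both states, so for Ier3 a knockout difference was visible before stimulation. On the log2 scale, knockout over wild type was 1.00 (SE 0.24) in fresh and 1.90 (SE 0.22) in stimulated cells.

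Papss2 encodes an enzyme that makes PAPS, the activated sulfate donor of sulfation reactions, and lies on chromosome 19 from 32595790 to 32667187 on the plus strand. Its fresh levels were 2.49, 2.08 and 2.06 CPM in wild type beside 2.39, 2.35 and 2.59 CPM in knockout, and its stimulated levels 3.01, 5.06 and 3.78 CPM in wild type beside 9.64, 11.2 and 12.6 CPM in knockout. Fresh libraries overlapped, and stimulated knockout libraries were all above the wild-type ones. The log2 fold change of knockout over wild type was 0.15 (SE 0.21) when fresh and 1.49 (SE 0.16) when stimulated.

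Fam46a, named Tent5a in GENCODE vM21, belongs to a family of noncanonical poly(A) polymerases and lies on chromosome 9 from 85320439 to 85327348 on the minus strand. Fresh wild type held 80.5, 72.3 and 76.9 CPM and fresh knockout 56.6, 56.7 and 60.5 CPM, while stimulated wild type held 13.3, 11.7 and 9.85 CPM and stimulated knockout 23.4, 38.0 and 20.3 CPM. As with Jag2, the knockout was the lower genotype when fresh and the higher one when stimulated, with no overlap, and stimulated knockout replicate 2 was the highest of its group. On the log2 scale, knockout over wild type was -0.40 (SE 0.16) in fresh and 1.23 (SE 0.18) in stimulated cells, and 0.92 in stimulated cells without that library.

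Scml4 encodes a nuclear protein related to Polycomb proteins and lies on chromosome 10 from 42860370 to 42960780 on the plus strand. Per length of exon it was the highest of the 10 in fresh cells. Its level was 277, 246 and 244 CPM in wild type beside 264, 255 and 260 CPM in knockout, and it stood at 27.8, 21.8 and 23.7 CPM in stimulated wild type beside 14.7, 11.1 and 12.4 CPM in stimulated knockout. Genotypes overlapped when fresh, and after stimulation the knockout libraries were all below wild type. The log2 fold change of knockout over wild type was 0.02 (SE 0.08) in fresh and -0.93 (SE 0.10) in stimulated cells.

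**Figure D3:**
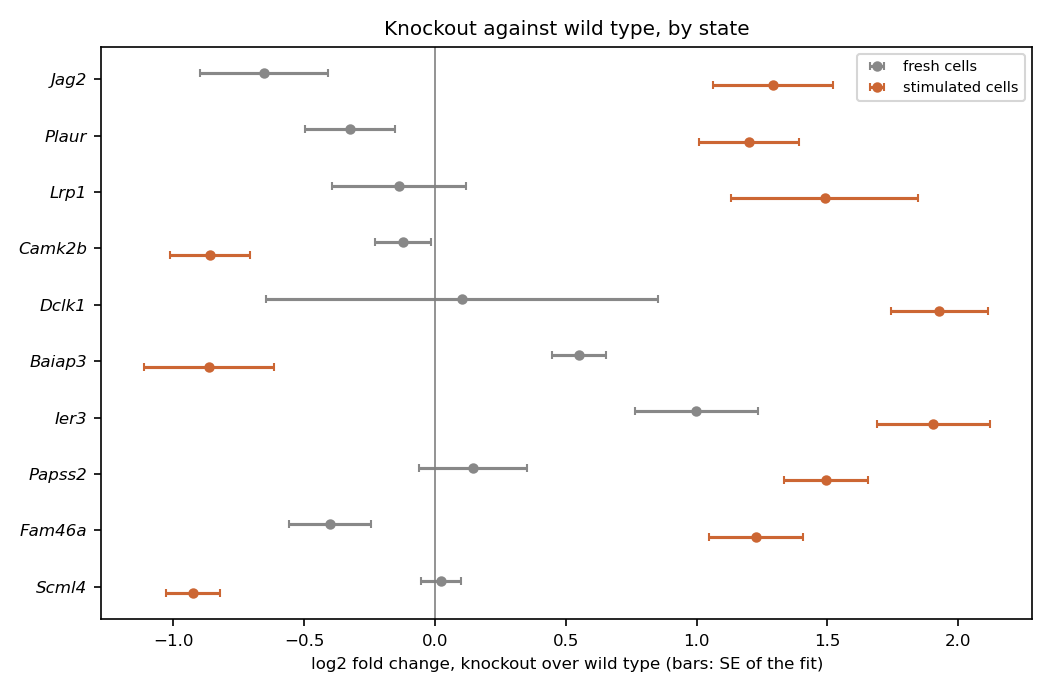
Log2 fold change of knockout over wild type for the 10 genes in fresh cells (grey) and stimulated cells (orange), with bars of 1 SE of the fit. In stimulated cells the values run from -0.93 for Scml4 to 1.93 for Dclk1, and the fresh values from -0.65 for Jag2 to 1.00 for Ier3, and the wide bar of Dclk1 stands on 1 to 4 counts in each fresh library.

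Set against stimulation, the genes fell into different patterns. Fam46a, Plaur and Lrp1 had lower means after stimulation in both genotypes, and more of their fresh level was left in the knockout: 15.1% in wild type and 47.0% in knockout for Fam46a, 23.8% and 68.6% for Plaur, and 13.4% and 42.3% for Lrp1. Plaur overlapped between the states in the knockout, at 18.8 to 33.3 CPM fresh and 14.7 to 20.0 CPM stimulated. Scml4, Camk2b and Baiap3 were lower after stimulation and less of their level was left in the knockout, with 9.56% in wild type and 4.91% in knockout for Scml4, 14.2% and 8.45% for Camk2b, and 2.52% and 0.957% for Baiap3. Papss2 was higher after stimulation, 1.78-fold in wild type and 4.56-fold in knockout, as was Dclk1, at 26.2-fold and 90.6-fold from fresh totals of 7 and 9 counts. Jag2 was at 0.665 times its fresh level in wild type and at 2.57 times in knockout, and Ier3 at 1.05 and 2.00 times. These ratios hold the same differences that chose the genes and carry no test.

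In a balanced design with equal spread in all groups, the mean of the stimulation effect over both genotypes does not depend on the knockout contrasts, so it was tested. Spread in count data differs between groups, and the tests share an estimate of it for each gene, so this holds only approximately here. Dclk1 was left out of this count, since a gene that passed the filter only where it is high had to differ. By edgeR's quasi-likelihood test with Benjamini-Hochberg adjustment the other 9 genes all passed, 3 higher and 6 lower after stimulation, against 88.3% of all genes tested (43.6% higher and 44.7% lower), so the count itself is near the background. A change of at least 2-fold together with the call was found for 7 of the 9, beside 41.7% of all genes. A rule that picks genes by a state-dependent knockout effect may favour genes that change with stimulation, so nothing is read from this share. Baiap3 fell most, by 6.02 on the log2 scale (SE 0.13, edgeR adjusted p = 7.02e-17), followed by Scml4, which fell by 3.86 (SE 0.06, edgeR adjusted p = 3.61e-17). Camk2b fell by 3.18 (edgeR adjusted p = 1.27e-14), Lrp1 fell by 2.07 (edgeR adjusted p = 1.36e-07), Fam46a fell by 1.91 (edgeR adjusted p = 2.62e-10) and Plaur fell by 1.31 (edgeR adjusted p = 7.88e-08).

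Papss2 rose by 1.51 on the log2 scale (SE 0.13, edgeR adjusted p = 1.41e-08) and Ier3 by 0.54 (SE 0.16, edgeR adjusted p = 0.00524). The value of Dclk1, 5.53 (SE 0.39), is given with no test. Jag2 changed by 0.38 (SE 0.17, edgeR adjusted p = 0.0432), a mean of opposite directions in the genotypes, and this call was lost in 9 of 18 other settings, with an adjusted p of up to 0.113. The calls of the other 8 genes counted held in all 18 settings.

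**Figure D4:**
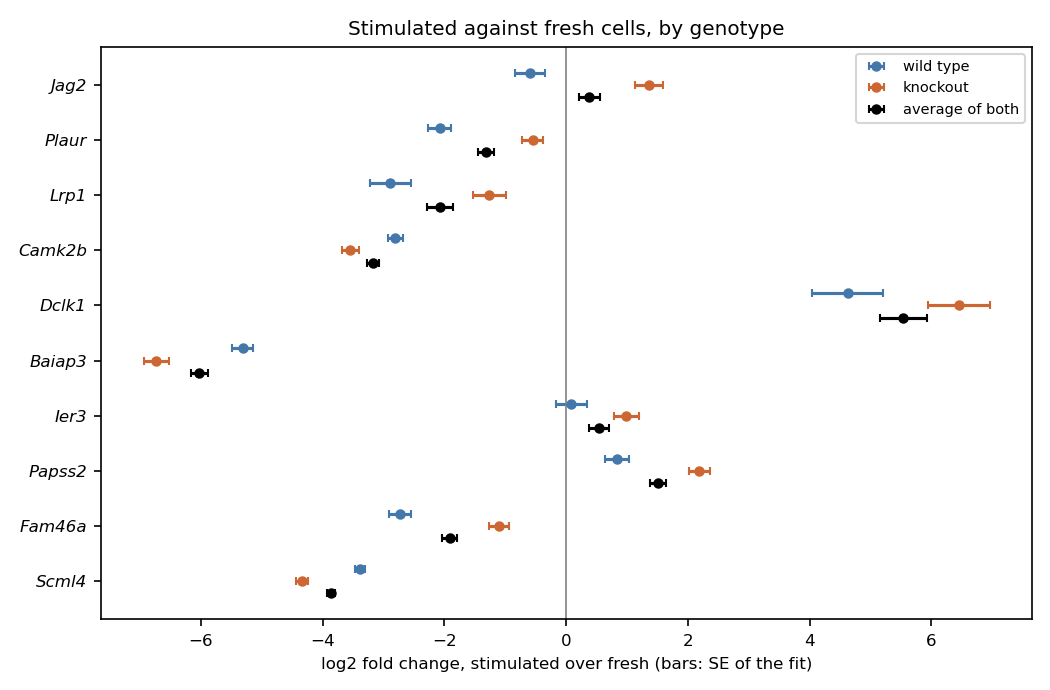
Log2 fold change of stimulated over fresh cells for the 10 genes in wild type (blue), in knockout (orange) and as the mean of both (black), with bars of 1 SE of the fit. The means run from -6.02 for Baiap3 to 5.53 for Dclk1, and Jag2 is the gene whose wild-type value (-0.59) and knockout value (1.36) lie on opposite sides of 0.

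Compared per length of exon, as CPM per kilobase, the order of the genes changed with the state. Fresh wild type had Scml4 first at 33.1, then Baiap3 at 16.8, Fam46a at 13.4, Plaur at 12.1, Camk2b at 3.60, Ier3 at 2.91, Jag2 at 0.917, Papss2 at 0.595, Lrp1 at 0.496 and Dclk1 at 0.00859 CPM per kilobase. Of the neighbours in that order, Fam46a and Plaur, Camk2b and Ier3, and Papss2 and Lrp1 overlapped between libraries. In stimulated wild type Scml4, Ier3 and Plaur overlapped at the top at 3.16, 3.06 and 2.89 CPM per kilobase. Stimulated knockout had Ier3 first at 11.6 CPM per kilobase, above Plaur at 6.64 with no overlap, then Fam46a at 4.77, which overlapped Plaur, and Papss2 at 3.00, while Scml4 had moved to the fifth place at 1.65, overlapping Jag2 at 1.50. Lrp1 was lowest per length in both stimulated groups, at 0.0665 in wild type and 0.189 CPM per kilobase in knockout, where its libraries overlapped those of Baiap3 and Camk2b.

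The stimulated knockout libraries differed among themselves. Replicate 2 was the highest of the 3 for 5 genes (Jag2, Fam46a, Plaur, Ier3 and Lrp1) and the lowest for 3 (Dclk1, Scml4 and Camk2b). Marker sums also differed between the stimulated genotypes. The CD8 sum was 2542 to 2614 CPM in wild type and 2121 to 2286 CPM in knockout. Each of the 8 CD8 T cell markers had a lower mean in the knockout. Wild type first, Cd3d, at 209 and 159 CPM (edgeR adjusted p = 0.000108), and Cd3g, at 169 and 121 CPM (edgeR adjusted p = 0.000210), were called. Cd3e, at 175 and 141 CPM (edgeR adjusted p = 0.00118), and Cd8a, at 596 and 481 CPM (edgeR adjusted p = 0.0155), were called as well. Cd8b1, Lck, Lat and Zap70 were not called. The dendritic cell sum was 678 to 833 CPM in wild type and 870 to 1097 CPM in knockout. Of the 14 dendritic cell markers, 3 were called higher in stimulated knockout. Ccr7, a chemokine receptor of T cells as well, was at 636 CPM in wild type beside 853 CPM in knockout (edgeR adjusted p = 0.0465). It made up most of the dendritic cell sum in both genotypes. The transcription factors Batf3, at 16.8 and 32.5 CPM (edgeR adjusted p = 0.00137), and Zbtb46, at 4.64 and 7.87 CPM (edgeR adjusted p = 0.0169), were the other called dendritic cell markers. The remaining dendritic cell markers were not called. Wild type first, Cd74 was at 58.3 and 46.9 CPM, H2-Aa at 12.5 and 10.8 CPM and H2-Eb1 at 8.81 and 7.81 CPM. H2-Ab1 was at 8.06 and 8.99 CPM, Flt3 at 1.94 and 1.74 CPM, Itgax at 1.53 and 1.25 CPM and Sirpa at 0.740 and 0.441 CPM. Over the 3 stimulated libraries of each genotype, wild type first, Xcr1 had 80 and 132 counts, Clec9a 5 and 10, Siglech 7 and 3 and Cd209a 1 and 1. The CD4 T cell list was at 63.3 to 98.7 and 81.2 to 183 CPM, with Cd4 itself at 0.876 and 0.639 CPM. Most of this sum was Ctla4, at 71.9 and 121 CPM, which was not called (edgeR adjusted p = 0.0761). Zbtb7b was at 6.99 and 5.63 CPM, Cd40lg at 2.64 and 1.81 CPM and Foxp3 at 2.80 and 2.85 CPM. The part of these sums in the levels of the 10 genes was not tested.

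The other genes of the pathways of the 10 members were followed through 9 lists with 130 genes, of which 115 passed the filter on low counts. No list gene was called between fresh genotypes by edgeR (13 of 115 at an unadjusted p under 0.05; 5 called by DESeq2 and 2 by limma-voom). In stimulated cells 15 list genes were higher and 6 lower in the knockout, beside 648 and 539 of all 12759 genes (5.08% and 4.22%). In the interaction 4 were higher and 1 lower, beside 0.698% and 1.56% of all genes. The median log2 fold change of the list genes in stimulated cells was 0.01, beside -0.00 for all genes.

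Of 26 Notch pathway genes measured beside Jag2, 3 were higher and 2 lower in stimulated knockout. Nrarp, a Notch target that feeds back on the pathway, rose from 1.05 ± 0.0834 CPM in wild type to 1.95 ± 0.222 CPM (log2 0.89, edgeR adjusted p = 0.00916). In fresh cells Nrarp was at 2.52 ± 0.274 CPM in wild type beside 3.59 ± 0.319 CPM in knockout, without overlap. Its interaction log2 was 0.39 and was not called (edgeR adjusted p = 0.478). Dtx1, the ubiquitin ligase Deltex 1, was higher in stimulated knockout as well (log2 0.55, edgeR adjusted p = 0.00454). Adam10, the protease that cuts Notch after ligand binding, fell by 0.37 on the log2 scale (edgeR adjusted p = 0.00112). The call of Maml3, a coactivator of Notch transcription that was lower (log2 -0.54, edgeR adjusted p = 0.0429), was lost in 13 of 18 other settings.

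Beside Plaur, Itgb1, the integrin beta 1 chain of the plasminogen activation list, rose by 0.33 on the log2 scale (SE 0.05, edgeR adjusted p = 0.00120), a call that held in all 18 other settings. Among 11 measured LDL receptor family genes beside Lrp1, Lrp8 (log2 0.43, edgeR adjusted p = 0.0155) and Lrp5 (log2 0.34, edgeR adjusted p = 0.0306) were higher and Lrp10 (log2 -0.29, edgeR adjusted p = 0.0131) was lower. Those calls were lost in 2, 5 and 1 of 18 other settings.

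Of 14 calmodulin-dependent and doublecortin-like kinase genes, only Dclk2, the paralog of Dclk1, was called, at 11.0 ± 1.08 CPM in stimulated wild type beside 16.9 ± 1.99 CPM in stimulated knockout (log2 0.63, edgeR adjusted p = 0.0100), a call lost in 1 of 18 other settings. Beside Baiap3, the 5 measured genes of the Munc13 family and granule release included Rab27a, a GTPase of cytotoxic granule release, and Stx11, a syntaxin of the same step, both higher in stimulated knockout (log2 0.34 for each, edgeR adjusted p = 0.00250 and 0.0420). The Stx11 call was lost in 7 of 18 other settings. Unc13a, a Munc13 protein of vesicle priming, was not called in either state (fresh log2 -0.87, edgeR adjusted p = 0.0554; stimulated log2 0.33, edgeR adjusted p = 0.283). Its interaction log2 was 1.20 (edgeR adjusted p = 0.0321), a call lost in 9 of 18 settings.

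Among 12 early response genes beside Ier3, Junb, a subunit of AP-1, was higher in stimulated knockout (130 ± 15.8 CPM in wild type beside 180 ± 15.3 CPM in knockout, log2 0.47, edgeR adjusted p = 0.00451). Its interaction log2 was 0.73 (edgeR adjusted p = 0.00886), and both calls held in all 18 settings. Egr3 and Egr2, transcription factors induced by the T cell receptor, were lower (log2 -0.49, edgeR adjusted p = 0.00830, and log2 -0.40, edgeR adjusted p = 0.0435), calls lost in 1 and 7 of 18 settings. Of 19 genes of sulfate activation and transfer beside Papss2, only Chst11, which sulfates chondroitin, was called, at 26.8 ± 0.994 CPM in stimulated wild type beside 46.4 ± 4.85 CPM in stimulated knockout (log2 0.79, edgeR adjusted p = 0.00154). Fresh Chst11 was at 27.9 ± 2.64 CPM in wild type beside 40.1 ± 9.10 CPM in knockout, without overlap. Its interaction log2 was 0.26 and was not called (edgeR adjusted p = 0.508).

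Beside Scml4, 20 Polycomb and SCM/MBT genes were measured, of which 3 were higher and 1 lower in stimulated knockout. Ezh2, the methyltransferase of Polycomb repressive complex 2, rose from 239 ± 16.6 CPM to 309.9 ± 6.08 CPM (log2 0.38, edgeR adjusted p = 0.000397), and its interaction log2 of 0.44 (edgeR adjusted p = 0.00886) was called in all 18 other settings. Cbx2 (log2 0.46, edgeR adjusted p = 0.0106) and Eed (log2 0.23, edgeR adjusted p = 0.0183) were the other higher genes, with calls lost in 1 and 4 of 18 settings. L3mbtl3, an MBT domain protein, was lower (log2 -0.32, edgeR adjusted p = 0.00921). Fam46c, the measured relative of Fam46a, was not called (log2 0.24, SE 0.09, edgeR adjusted p = 0.0966).

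Neighbouring genes were examined on both sides of each member, 20 in all, taking the nearest RefSeq gene that passed the filter. In stimulated cells 2 of the 20 were called, a share near the 9.30% of all genes: Gpr132 beside Jag2, which was higher in the knockout (log2 0.32, edgeR adjusted p = 0.00668), and Gnptg beside Baiap3, which was lower (log2 -0.36, edgeR adjusted p = 0.0165). The Gnptg call was lost in 3 of 18 settings. None was called by edgeR between fresh genotypes (4 at an unadjusted p under 0.05; 0 called by DESeq2 and 0 by limma-voom) or in the interaction (3 at an unadjusted p under 0.05; 1 called by DESeq2 and 0 by limma-voom).

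The gene whose log2 CPM followed each member most closely over the 12 libraries was sought among 9387 genes, as a description without a test, since the libraries share the contrast of fresh with stimulated cells. The highest Pearson r was 0.999 for Scml4 with Fchsd1, 0.998 for Baiap3 with Fam13b, 0.997 for Camk2b with Git2 and 0.992 for Dclk1 with Acly, all members with a large stimulation effect. It was 0.983 for Fam46a with Ccng2, 0.979 for Plaur with Zmiz1, 0.967 for Lrp1 with Klf6 and 0.963 for Papss2 with Furin. Ier3 with Mif4gd (r = 0.939) and Jag2 with Basp1 (r = 0.901) had the lowest of these values, and they were also the 2 members with the smallest mean stimulation effect.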

How the data were processed

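RNA was sequenced in 12 libraries, 3 in each of 4 groups taken from the source labels; replicate numbers follow no label and only name libraries. The authors deposited 1 file of raw, unnormalized counts per gene for each library. The submitters' processing notes name mm10 as the build and list TopHat2, TopHat, DESeq2 and HTSeq; for versions, annotation and strand setting the sources used here give nothing. The 5 HTSeq summary lines of each file (5.22% to 6.43% of its total) were left out.

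The analysis used edgeR 4.0.16 under R 4.3.3: filterByExpr by group (12759 genes kept), TMM scaling (factors 0.988 to 1.01), and 1 quasi-likelihood model over all 12 libraries with 8 residual degrees of freedom. Tests were two-sided, adjusted by Benjamini-Hochberg over all genes tested, and called under 0.05; "edgeR adjusted p" means this test. The script was tested on simulated data. CPM are scaled to 1e+06 counts with TMM. Levels per kilobase used the union of GENCODE vM21 exons on GRCm38.

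The 10 genes and all lists were chosen with earlier results of these data known. From each list, up to 4 called genes are named, by smallest p in the interaction, or the gene closest in name where none was called (1 gene that this rule names is not reported here); per member, 1 nearest gene a side and the gene of highest r whose average log2 CPM reached 2, without predicted genes or receptor segments. Alternatives were DESeq2 1.42.0, limma-voom (limma 3.58.1), RLE scaling, no filter, the libraries with Y-linked reads left out or given a term, and each library left out in turn.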

Additional observations from a re-analysis of the deposited data

Results flagged for a closer look

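The difference between the knockout effects in stimulated and in fresh cells (the interaction, log2) was past the threshold of edgeR's quasi-likelihood test for 6 of the 10 members. It was 1.95 for Jag2, 1.63 for Fam46a, 1.53 for Plaur and 1.35 for Papss2, and -1.42 for Baiap3 and -0.95 for Scml4. The members were chosen for such a difference, so these values describe the choice. That of Baiap3 was not past the threshold with limma-voom, nor that of Papss2 once the libraries with Y-linked reads were left out. Otub1, the targeted gene, had an interaction log2 of -1.47, with the knockout lower in both states.

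Among the other list genes named, 5 had a knockout effect that differed between the states by the same test: Unc13a at 1.20 (called in neither state alone), Rab27a at 0.35, Junb at 0.73, Ezh2 at 0.44 and L3mbtl3 at -0.39. The calls of Junb and Ezh2 held in all 18 other settings, while those of Unc13a, Rab27a and L3mbtl3 were lost in 9, 8 and 11 of them. Groups of 3 libraries were too small to look for single libraries that stand apart by a test.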

How the results depend on the processing

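No value of a member or named gene that had passed the threshold changed sign in any of the 18 other settings. For the tested mean stimulation effect, Jag2 lost its call in 9 settings. Among the members' knockout and interaction values, which describe the choice, 7 moved beyond the spread between replicates, over the settings. The number of genes called between fresh genotypes, 153, was 330 with DESeq2, 245 with no filter on low counts and 90 once the libraries with Y-linked reads were left out, and ran from 29 to 204 when 1 library was left out, with the lowest 4 values, 29 to 93, without fresh wild-type replicate 2 or 3 or fresh knockout replicate 1 or 3. In stimulated cells the number was 1187, and 514 to 1307 with 1 library left out, the lowest without stimulated wild-type replicate 3 and the next, 758, without replicate 2. For the interaction it was 288, with 555 by DESeq2, 443 with no filter, 122 once those libraries were left out and 131 to 349 with 1 library left out, lowest without stimulated wild-type replicate 3 (131), fresh wild-type replicate 2 (135) or 3 (161) or fresh knockout replicate 1 (166). The number of members called between fresh genotypes, 1, was 2 with DESeq2, with no filter and with a term for Y-linked reads, 0 without the libraries with Y-linked reads, and 0 to 3 with 1 library left out. Over all settings 8 to 10 members were called in stimulated cells and 5 to 8 in the interaction. All these member calls, and those named next, follow from how the genes were chosen, and nothing is read from them. In stimulated cells the genes that dropped out were Baiap3 (with limma-voom, once the libraries with Y-linked reads were left out, and without replicate 1 or 3 of wild type or replicate 1 of knockout) and Lrp1 (with limma-voom, and without wild-type replicate 3 or knockout replicate 2). In the interaction Baiap3 dropped out with limma-voom and Papss2 once the libraries with Y-linked reads were left out. The cause of these changes was not tested. No paired analysis was possible because the labels give no replicate numbers shared between groups. In fresh cells Dclk1 had 1 to 4 counts in a library, which limits its fresh values and its interaction.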
